A study of Sus scrofa with 21 samples.

Results

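The genes described here encode the proteins of the cytosolic ribosome. They were taken as every gene name on the array that reads RPL or RPS followed by a number, with RPLP0, RPLP1, RPLP2 and RPSA, and without the mitochondrial ribosomal proteins and the S6 kinases. The rule found 75 of 48527 gene names, of which 45 belong to the large subunit and 30 to the small subunit. They were measured by 269 of the 60305 probes, each 60 bases long. The rule used names alone and no measured value.

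The cytosolic ribosome translates nuclear mRNAs into protein. Its large subunit joins amino acids and its small subunit reads the mRNA, and each holds its own set of proteins around ribosomal RNA. Most of these mRNAs begin with a terminal oligopyrimidine (TOP) tract, through which the mTOR pathway adjusts their translation together with that of several translation factors. In blood, inherited loss of 1 copy of some of these genes is known to cause Diamond-Blackfan anaemia, in which red cell precursors fail to mature.

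Whole blood RNA came from 10 DD pigs and 11 LW pigs of 60 days, with 1 Cy3-labelled array per pig. DD pigs (breed SLAdd in the labels) are minipigs of an inbred line that is homozygous at the swine leukocyte antigen (SLA) complex, and LW pigs are Large White, a lean commercial breed. Pigs of both breeds ate a standard diet without restriction. The DD pigs came from 5 litters and the LW pigs from 6, so the SLA type, the inbred background and the breed cannot be told apart. The values are the deposited quantile-normalised log2 values, averaged over the probes of a gene. Log2 FC is the DD minus LW difference from a limma model that also holds the chip and, as a random block, the sow. A gene was called at an adjusted p below 0.05 (Benjamini-Hochberg over 35578 genes).

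The arrays of DD pigs were dimmer. Their brightness (75th percentile of processed signals, log2) averaged 7.53 ± 0.54 (SD, n = 10) for DD and 8.22 ± 0.38 (SD, n = 11) for LW. By chip, DD and LW means were 7.95 and 8.02 (chip 1), 7.55 and 8.31 (chip 2), 7.09 and 8.36 (chip 3). A few arrays, of both breeds, also had low signal at probes far from the 3′ end of mRNAs. An index of this loss, the signal of the first minus the last probe over 1081 mRNAs of other genes, was lowest in LW 22 (−0.36), DD 16 (−0.30), DD 13 (−0.26) and LW 18 (−0.24) and highest in DD 01 (0.19). Defining markers of red cells (HBB, the beta chain of haemoglobin, 15.52 to 18.10 over both breeds) and T cells (CD3D, a chain of the T cell receptor complex, 7.55 to 9.53) were measured.

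Ribosomal protein genes were lower in DD pigs across both subunits. Of 74 tested, 40 were lower and 0 higher, where 9.57% of all genes tested were lower and 11.4% higher. At an unadjusted p below 0.05, 47 were lower and 0 higher in limma, and all other settings of limma that were run on 1 value per gene called 0 or 1 higher. The median log2 FC was −0.36, against −0.04 over all genes, and 67 of 74 values were below 0, against 54.8% of all genes. With arrays scaled to their 75th percentile in place of quantile normalisation, the median was −0.10, 57 of 74 values were below 0, and RPLP2 (0.034) and RPS29 (0.36) turned above 0. That scaling moved the median of all genes to 0.06, so the genes' median lay 0.16 below the median of all genes in place of 0.32. It gave 11 lower and 1 higher among the 74 genes, and 2248 lower and 5073 higher in place of 3406 and 4053 among all genes. In whole blood, fewer cells of a type and less RNA per cell cannot be told apart.

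**Figure D1:**
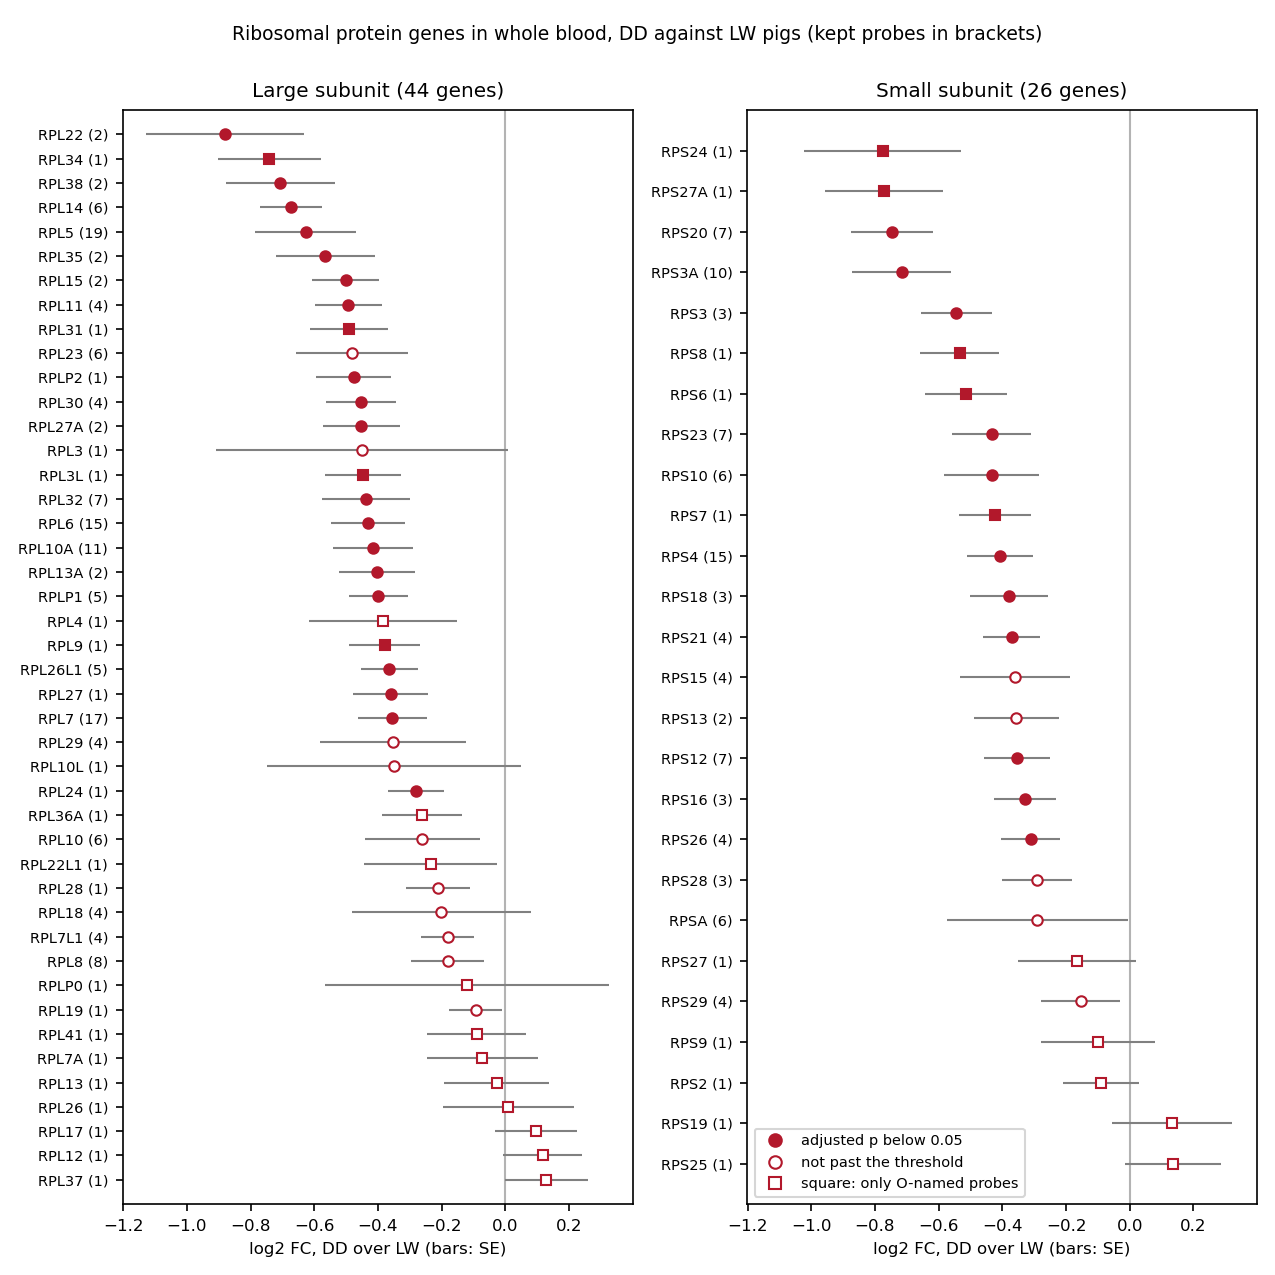
Log2 FC of DD over LW pigs (x axis) of 70 of the 74 tested ribosomal protein genes, ordered within the large subunit (left) and the small subunit (right), with bars for the SE and the number of probes in brackets. Filled symbols, all left of 0, mark the 39 genes with an adjusted p below 0.05, squares mark genes with only O probes, and the values run from −0.88 (RPL22) to 0.14 (RPS25).

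The mean over the 74 genes was 12.07 in the lowest DD pig, with a median of 12.56 and a highest value of 12.79. In LW pigs it ran from 12.40 to 13.16 with a median of 12.91. All 10 DD pigs lay below the LW median and 7 LW pigs lay above the highest DD pig, but the breeds overlapped. The lowest LW pigs were LW 22 (12.40), LW 18 (12.61) and LW 07 (12.68). No single gene had all DD pigs below all LW pigs, which 0.281% of all genes had.

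The size of the difference depended on how it was summed over the genes. The mean over the 74 genes differed between the breeds by −0.19, −0.41 and −0.40 on chips 1 to 3. The median difference between breed means over the 74 genes was −0.18, −0.38 and −0.61 on chips 1 to 3, and over all genes it was 0.00, −0.02 and −0.10. On these chips 70, 69 and 55 of the 74 genes were below 0, and each of the 40 called genes was below 0 on all of them. Without chip 3, which holds 3 pigs of each breed, only RPL14 was called and the median was −0.28, and calls fell over the whole array, with 0.866% of all genes lower. With the brightness of each array in the model, again only RPL14 was called (log2 FC −0.45, adjusted p 0.0149) and the median was −0.16, where 1.23% of all genes were lower. Without LW 18 the count was 19, where 3.74% of all genes were lower, and without DD 21 it was 25, where 4.95% were. The part of array brightness in the result was not tested.

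The large and small subunits had like values. In the large subunit 23 of 45 genes were lower, with a median log2 FC of −0.36, and in the small subunit 17 of 29 were lower, with a median of −0.36. The small subunit gene RPS4X was left out of the tests, since its 1 probe was in the dimmest quartile and not well above background on any array. RPL13 was tested (log2 FC −0.03) but none of the DD arrays had it well above background, and no fold is given. Genes with a higher signal made up most of the calls. Of the 49 with a mean log2 value of at least 12, 32 were lower, with a median of −0.40, where 16.4% of all 1664 genes at that level were lower, with a median of −0.13. Of the 25 dimmer ones, 8 were lower, with a median of −0.17.

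In the large subunit the lowest values belonged to RPL22, RPL34, RPL38 and RPL14. RPL22, which also binds structured RNAs outside the ribosome and is needed for the development of some T cells, ran from 10.79 to 12.93 in DD pigs (median 11.85) and from 12.01 to 13.45 in LW pigs (median 12.65). The breeds overlapped, with 6 DD pigs below the lowest LW pig. Its log2 FC was −0.88 (SE 0.25, adjusted p 0.0217), or 0.543 times the LW level, and both of its probes were lower (−0.92 and −0.84). These probes overlap by 40 bases and are not separate measurements of the gene. The call was lost without DD 21 or LW 18. RPL14, a protein of the subunit surface, ran from 11.71 to 12.48 in DD pigs (median 12.09) and from 12.25 to 12.96 in LW pigs (median 12.82). Here 8 DD pigs lay below every LW pig, and 9 LW pigs lay above every DD pig. Its log2 FC was −0.67 (SE 0.10, adjusted p 0.000125), and it was called in every setting that was run.

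RPL34 and RPL38 had overlapping breeds too. RPL34 ran from 12.44 to 13.56 in DD pigs (median 12.87) and from 13.14 to 14.34 in LW pigs (median 13.86), with a log2 FC of −0.74 (SE 0.16, adjusted p 0.00562). All 10 DD pigs lay below the LW median. RPL38, known from mice for its part in the translation of Hox mRNAs, ran from 13.07 to 14.08 in DD pigs (median 13.34) and from 13.28 to 14.62 in LW pigs (median 14.34). Its log2 FC was −0.71 (SE 0.17, adjusted p 0.0105), but its probes differed, with −1.10 (adjusted p 0.014) and −0.31 (adjusted p 0.07).

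In the small subunit the lowest values belonged to RPS24, RPS27A, RPS20 and RPS3A. RPS20, a protein of the subunit head, ran from 15.48 to 16.62 in DD pigs (median 16.00) and from 16.26 to 17.06 in LW pigs (median 16.77). Of the DD pigs, 7 lay below every LW pig, and 7 LW pigs lay above every DD pig. Its log2 FC was −0.75 (SE 0.13, adjusted p 0.000708), and all 7 of its probes were lower, between −0.78 and −0.69, but these probes overlap each other by up to 58 bases and are not separate measurements of the gene. RPS3A, a protein near the mRNA exit, ran from 11.55 to 13.12 in DD pigs (median 12.44) and from 12.73 to 13.48 in LW pigs (median 13.13). The breeds overlapped, with 6 DD pigs below every LW pig. Its log2 FC was −0.72 (SE 0.16, adjusted p 0.00512), and all 10 of its probes were lower, but many of these overlap each other, by up to 59 bases.

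RPS27A, which is made as a fusion with ubiquitin, ran from 13.83 to 15.29 in DD pigs (median 14.53) and from 14.46 to 15.90 in LW pigs (median 15.31), with a log2 FC of −0.77 (SE 0.19, adjusted p 0.0102). All 10 DD pigs lay below the LW median. RPS24, a gene mutated in some patients with Diamond-Blackfan anaemia, ran from 11.97 to 14.61 in DD pigs (median 13.06) and from 13.22 to 14.62 in LW pigs (median 13.82). The breeds overlapped up to the top of the LW range, with 1 LW pig above every DD pig and 7 DD pigs below every LW pig. Its log2 FC was −0.78 (SE 0.25, adjusted p 0.0328), a call that was lost in 17 alternative settings, among them those without DD 01, DD 10, DD 19, DD 21, DD 23, LW 09, LW 12, LW 18 or LW 22 alone. RPS6, the protein that S6 kinase phosphorylates, was lower too, at −0.51 (SE 0.13, adjusted p 0.0132), but not called without LW 18.

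Litters rather than pigs were also compared, since pigs of 1 litter share a sow. The difference of litter means was tested by an exact two-sided permutation over the 462 divisions of the litters, where 0.00216 is the smallest p possible. For RPL22, RPL14, RPS27A, RPS20 and RPS3A the exact permutation p was 0.00216, for RPL34 and RPL38 it was 0.00433, and for RPS24 it was 0.0281. These p-values are for single genes, without adjustment over the 35 genes tested so. The genes named here were picked as the lowest called in the same pigs, so their small p-values are no separate support. The chip effect was removed beforehand in a fit that held the true breeds, so the permutation is not strictly exact.

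**Figure D2:**
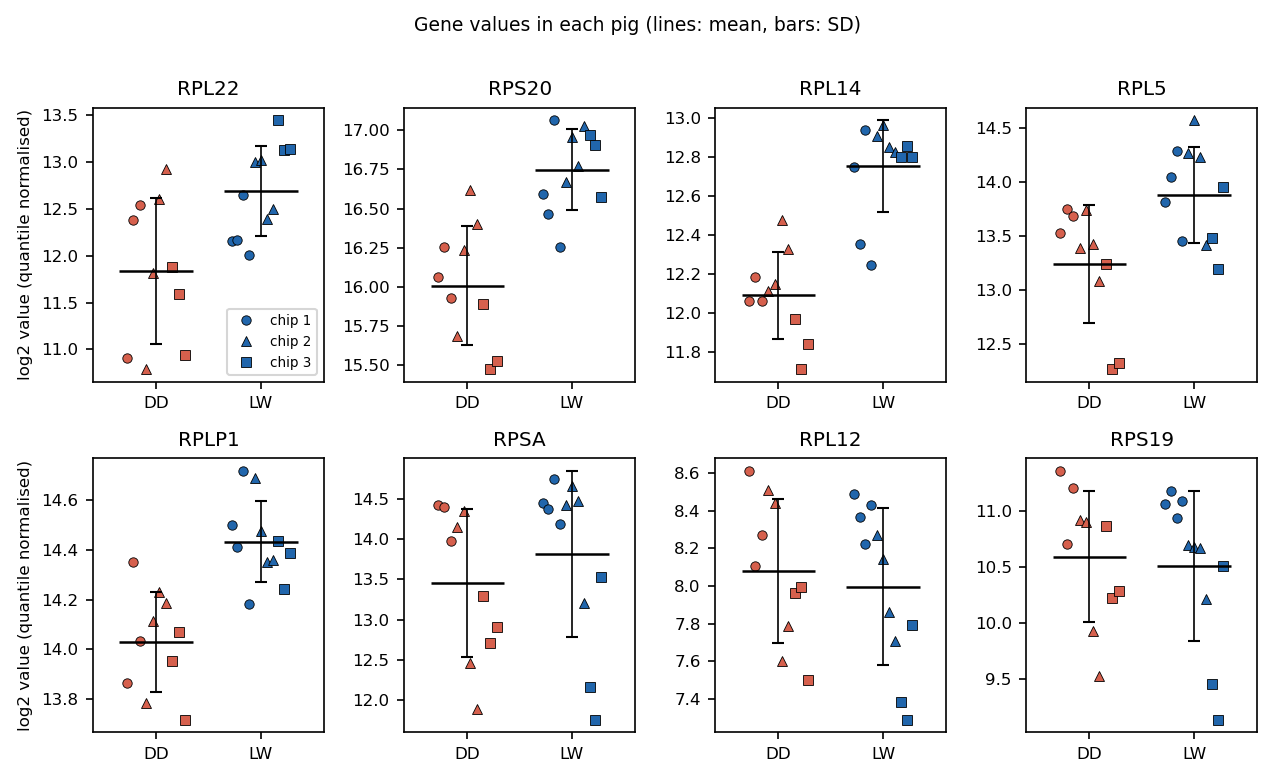
Log2 values (y axis, quantile normalised, each panel with its own range) of 8 genes in the 10 DD and 11 LW pigs, 1 point per pig, with marker shape for the chip, a line for the mean and bars for the SD. In the panel of RPL14, 8 DD pigs lie below every LW pig, and in the panels of RPL12 and RPS19 the breeds overlap over most of their range.

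The stalk recruits the translation factors that drive elongation, and 2 of its 4 tested genes were lower, where 40 of all 74 were. Of its acidic proteins, RPLP1 was lower at −0.40 (SE 0.09, adjusted p 0.0087). It ran from 13.72 to 14.35 in DD pigs (median 14.05) and from 14.18 to 14.72 in LW pigs (median 14.41), with 9 LW pigs above every DD pig. RPLP2 was lower at −0.48 (SE 0.12, adjusted p 0.0118), with overlapping breeds (DD 16.49 to 17.41, LW 16.81 to 17.70), but it was 0.034 and not called under the 75th percentile scaling. RPLP0, which anchors the stalk, was not called at −0.12 (SE 0.45, adjusted p 0.866). Its values ran from 8.67 to 13.20 in DD pigs and from 8.43 to 13.03 in LW pigs, a range within each breed that was far wider than the difference between them. RPL12, at the base of the stalk, was not called at 0.12 (SE 0.12, adjusted p 0.52).

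RPL5 and RPL11 carry the 5S ribosomal RNA into the large subunit and, when free, bind MDM2, a ubiquitin ligase. Both were lower in DD pigs. RPL5 ran from 12.26 to 13.75 in DD pigs (median 13.40) and from 13.19 to 14.57 in LW pigs (median 13.95), with a log2 FC of −0.63 (SE 0.16, adjusted p 0.0138). RPL11 ran from 12.14 to 13.04 in DD pigs (median 12.68) and from 12.93 to 13.48 in LW pigs (median 13.15), with a log2 FC of −0.49 (SE 0.11, adjusted p 0.0047). For RPL11, 9 LW pigs lay above every DD pig. MDM2 itself was lower at −0.70 (SE 0.17, adjusted p 0.0107), while RPL23, another ligand of MDM2, was −0.48 (SE 0.18, adjusted p 0.0545) and not called.

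Around the exit tunnel, where the new protein leaves the large subunit, 3 of 8 tested genes were lower (RPL31, RPL35 and RPL38). Their list had a median log2 FC of −0.37. Over all 74 ribosomal protein genes, 40 were lower, with a median of −0.36. RPL35 was −0.56 (SE 0.15, adjusted p 0.0195), which was not called without LW 18. Its probes differed, with −0.80 (SE 0.26) at a dim probe (mean log2 value 7.55) and −0.33 (SE 0.11) at a bright one (15.64). At the mRNA entry and exit sites of the small subunit 2 of 7 were lower, with a median of −0.29. They were RPS3 (−0.54, SE 0.11, adjusted p 0.00345), at the entry, and RPS26 (−0.31, SE 0.09, adjusted p 0.0267), at the exit. The call of RPS26 was lost in 10 alternative settings, among them those without DD 21, DD 23, LW 18 or LW 22 alone. Its value includes an O probe (0.09) that was well above background on 0 DD arrays and 1 LW array. The other probes of RPS26, which share sequence, lay between −0.48 and −0.42. RPSA, also near the exit and known as the laminin receptor precursor, was not called (−0.29, SE 0.28, adjusted p 0.479), nor was RPS2 (−0.09, SE 0.12, adjusted p 0.609). Of the 18 measured genes known to be mutated in Diamond-Blackfan anaemia, 12 were lower and 0 higher, with a median of −0.43. At an unadjusted p below 0.05 in limma, 13 were lower and 0 higher. All 18 are among the 74 genes, of which 40 were lower and 0 higher. The gene most often mutated in that disease, RPS19, was not among the 12 (0.13, SE 0.19, adjusted p 0.637).

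Paralogues of core proteins were measured by few probes of their own. RPL3L, a form of RPL3 known from heart and skeletal muscle, was lower at −0.45 (SE 0.12, adjusted p 0.0176) but not called without LW 18. RPL26L1 was lower at −0.36 (SE 0.09, adjusted p 0.0118), with 4 of 5 probes lower, among them a pair that overlaps by 53 bases. RPL7L1 (−0.18, SE 0.08, adjusted p 0.115), RPL22L1 (−0.23, SE 0.21, adjusted p 0.433) and RPL10L (−0.35, SE 0.40, adjusted p 0.549) were not called. The RPL3L probe is an O probe with a protein accession, and whether it also binds RPL3 was not tested. The value of RPL10L cannot be kept apart from that of RPL10, as its probe shows.

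The RPL10L probe carries the accession of RPL10 and shares 53 bases with an RPL10 probe. The sequences of both are shown, because the paralogue is named by them alone. Capitals mark the 3 mismatches in the shared stretch (C8A, A10C and C11A, with positions counted from the 5′ end of the RPL10 probe and the base of the RPL10 probe given first).
RPL10 probe: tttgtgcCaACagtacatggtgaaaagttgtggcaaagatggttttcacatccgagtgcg
RPL10L probe: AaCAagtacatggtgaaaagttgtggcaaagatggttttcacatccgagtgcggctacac
The breed difference was −0.35 (SE 0.41) at the RPL10 probe and −0.35 (SE 0.40) at the RPL10L probe. Relative to the DD median, the signals of DD 16 were −3.13 and −3.03, and relative to the LW median those of LW 22 were −3.96 and −3.88. RPL10 as a whole, over 6 probes, was −0.26 (SE 0.18, adjusted p 0.308).

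Among the genes with a log2 FC above 0 were RPS25 (0.14, SE 0.15), RPS19 (0.13, SE 0.19), RPL37 (0.13, SE 0.13), RPL12 (0.12, SE 0.12), RPL17 (0.10, SE 0.13) and RPL26 (0.01, SE 0.21). None was called, with adjusted p from 0.496 for RPL37 to 0.979 for RPL26. RPS25, of the small subunit, ran from 14.02 to 15.25 in DD pigs (median 14.48) and from 13.75 to 14.78 in LW pigs (median 14.38). RPS19, which is needed to mature the RNA of the small subunit, ran from 9.53 to 11.36 in DD pigs (median 10.79) and from 9.14 to 11.18 in LW pigs (median 10.67). In both genes the breeds overlapped over most of their range. Each of these genes rested on 1 probe, and RPS25 was below 0 on chip 3 (−0.33) while the others were above 0 there.

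These probes were all O probes, a probe set with names that start with O. On the array 4573 O probes carry RefSeq accessions, of which 0 are in the pig RefSeq table, while 174 of 181 such accessions of the A_72 probes of these genes are in it. Of the 26 tested genes with only O probes, 9 were lower, with a median of −0.14. Of the other 48 genes, 31 were lower, with a median of −0.39, and 47 were below 0. All 33 genes with at least 3 probes were below 0, with 22 lower and a median of −0.38. In 18 genes with both kinds of probe, the log2 FC was higher at the O probes than at the A_72 probes in 12. The median difference, O minus A_72 over all 18, was 0.07. Without O probes, an alternative chosen after the data were seen, 32 of 48 genes were lower, with a median of −0.40. In that setting 9.74% of all genes were lower.

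Probes of 1 gene mostly gave the same difference, although many of them share sequence. In the 31 genes with at least 3 A_72 probes, the SD of the log2 FC between probes of a gene had a median of 0.05, while the SD between the medians of the genes was 0.14. Those gene medians ran from −0.78 to −0.15, and in 22 of the 31 genes the probes spanned less than 0.2. In 7 pairs of probes with the same sequence, the log2 FC differed by a median of 0.03 and at most 0.13. Fitted probe by probe, 167 of 267 probes were lower and 1 was higher, where 10.7% of all probes were lower and 11% higher. RPL5 had the most probes, 19, and all of its values lay between −0.68 and −0.57.

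**Figure D3:**
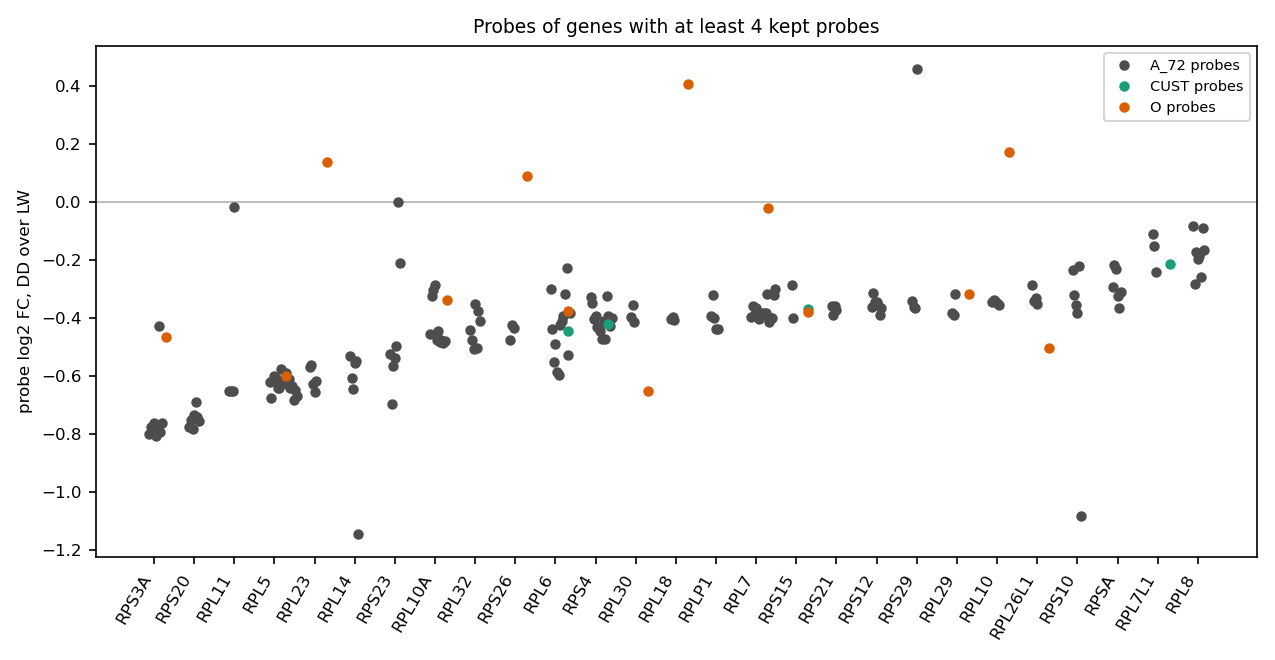
Log2 FC of DD over LW pigs (y axis) of single probes for genes with at least 4 probes, 1 column per gene ordered by the gene's median, coloured by probe set. The probes of most genes lie together below 0, while single probes of RPS10 (−1.08), RPL14 (−1.15) and RPS29 (0.46) stand apart from the rest of their gene.

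RPS10 and RPS29 were among the 4 genes with the widest range between probes. RPS10, a protein near the mRNA entry, was −1.08 (SE 0.13, adjusted p 1.2e-05) at the probe that starts at base 1338, and between −0.38 and −0.22 at the other 5. As a gene it was −0.43 (adjusted p 0.0428), a call that was lost in 25 alternative settings, among them those without DD 01, DD 08, DD 10, DD 13, DD 16, DD 21, DD 23, LW 02, LW 05, LW 09, LW 12, LW 14, LW 18 or LW 24 alone.

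RPS29, a zinc-binding protein of the subunit head, was between −0.36 and −0.34 at 3 probes and 0.46 (adjusted p 0.0424) at the probe that starts at base 729. This was the only probe of the 267 called higher. It was well above background on 1 DD array and 0 LW arrays, so its direction rests on dim values, and under the 75th percentile scaling the mean of the gene turned to 0.36. Likewise, the last probe of RPL14 stood at −1.15 while the others lay between −0.65 and −0.53. RPL11 was −0.65 at 3 probes and −0.02 (adjusted p 0.927) at its last. In RPL18 and RPL23, O probes gave 0.41 and 0.14, while the A_72 probes lay between −0.41 and −0.40 and between −0.66 and −0.56. RPL14, RPL11 and RPL18 were singled out here after their values were seen.

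The position of a probe along its mRNA went with the spread between pigs. In 22 of these mRNAs with probes at least 200 bases apart, the SD within breeds was larger at the first probe than at the last in 20, with medians of 0.61 and 0.34. The log2 FC was like at both ends, with a median of −0.37 at the first probes and −0.41 at the last, and it was below 0 at both ends in all 22. The median SE was 0.19 at the first and 0.13 at the last probes, and 8 first probes and 19 last probes were lower in the fit over all probes. In the index of first minus last probe over these mRNAs, DD 16 (−1.44), LW 22 (−1.15) and LW 18 (−1.08) were lowest. The index over other mRNAs was −0.03 ± 0.16 (SD, n = 10) for DD and −0.06 ± 0.17 (SD, n = 11) for LW (exact two-sided permutation of litter means, p 0.907). That comparison took no account of the chip. On chip 3 the index ran from −0.36 to −0.17 in LW pigs and from −0.12 to −0.06 in DD pigs, without overlap. On the other chips the breeds overlapped.

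RPL5 and RPL10A, both of the large subunit and both lower in DD pigs, show this at the level of single probes. An early and a late probe of each are given with their start in the mRNA, in lower case throughout.
RPL5 at base 377: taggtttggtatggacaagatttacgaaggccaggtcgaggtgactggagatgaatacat
RPL5 at base 766: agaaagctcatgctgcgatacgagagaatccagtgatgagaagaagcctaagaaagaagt
RPL10A at base 108: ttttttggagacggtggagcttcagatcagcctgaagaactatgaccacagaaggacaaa
RPL10A at base 541: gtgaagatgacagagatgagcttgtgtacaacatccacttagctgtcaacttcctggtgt
For RPL5 the log2 FC was −0.68 (SE 0.33, adjusted p 0.141) at base 377 and −0.64 (SE 0.15, adjusted p 0.00742) at base 766. Relative to the median of its breed, LW 22 was −2.40 at the first of them and −0.41 at the second, and DD 16 was −1.55 and −0.02. For RPL10A the log2 FC was −0.32 (SE 0.22, adjusted p 0.287) at base 108 and −0.48 (SE 0.14, adjusted p 0.0237) at base 541. The probe that gave a call was in both genes the one with the smaller spread between pigs.

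**Figure D4:**
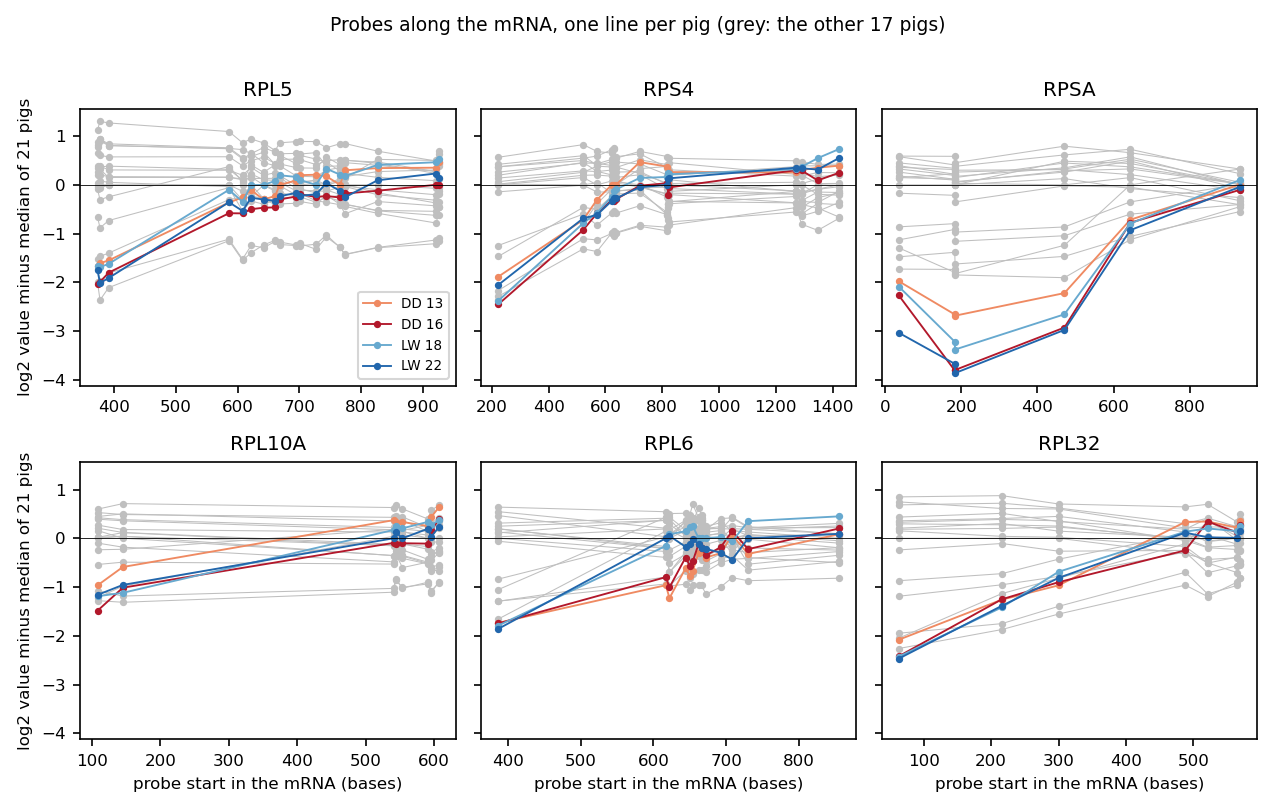
Log2 value of each probe minus its median over the 21 pigs (y axis) against the start of the probe in the mRNA in bases (x axis), for 6 genes, with 1 line per pig. The lines of DD 13, DD 16, LW 18 and LW 22 (coloured) lie far below the median at the first probes and close to it at the last.

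RPSA had the same course. Its probe at base 36 gave −0.30 (SE 0.31, adjusted p 0.514) and its probe at base 932 gave −0.31 (SE 0.09, adjusted p 0.0247). Genes with a single probe cannot be looked at so, and for them the slope of the value on the index of other mRNAs was computed, with breed and chip in the model. Steep slopes above 0 belonged to RPLP0 (9.11 log2 units per unit of the index), RPL3 (8.25), RPL10L (7.48), RPSA (5.59) and RPL18 (5.14). None of these was called. Below 0 the steepest slopes were those of RPL22 (−3.36), RPS24 (−2.94) and RPS27A (−2.43), all called lower. The median slope was −0.82 over the called genes, 2.07 over those not called and −0.27 over all genes tested. Of the 25 genes with a slope above 1, 3 were lower, with a median log2 FC of −0.18 and a median SE of 0.18. Of the other 49, which include all slopes below 0, 37 were lower, with a median of −0.41 and a median SE of 0.12. Over all genes, 18.4% had a slope above 1.

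Of the 19 genes above 0 on chip 3, which holds LW 18 and LW 22, 16 had a slope above 1. The alternatives that address the position of probes were chosen after the data were seen. With the probe nearest the 3′ end of each mRNA, 45 genes were lower, among them all 40 and RPL10, RPL23, RPS13, RPS15 and RPSA, where 9.62% of all genes were lower. With the index in the model, 43 were lower, 38 of them shared, with a median of −0.39, where 9.15% of all genes were lower. Without LW 22, DD 16 and DD 13 together, 30 were lower, 29 of them shared, with a median of −0.37, where 6.61% of all genes were lower.

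**Figure D5:**
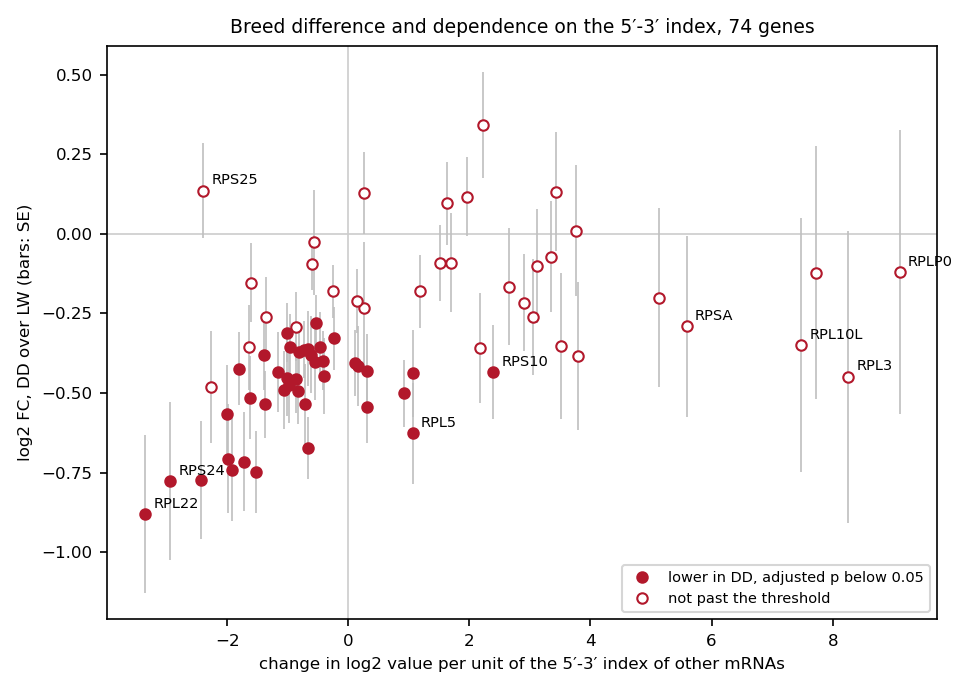
Log2 FC of DD over LW pigs with its SE (y axis) against the change in log2 value per unit of the 5′-3′ index of other mRNAs (x axis), 1 point per gene for 74 genes, filled where the adjusted p was below 0.05. Only 3 of the 25 genes with a slope above 1 are filled, and 37 of the other 49.

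By RefSeq, 72 of the 75 genes matched 1 entry of Sscrofa11.1, and they lie on 15 chromosomes. On chromosome 7, which carries the SLA complex, 4 of 5 tested genes were lower, with a median of −0.41. Chromosome 7 did not stand apart, with 4 of 5 lower on chromosome 3 (median −0.45) and 3 of 3 on chromosome 8 (median −0.72). On chromosome 6, with the most genes, 5 of 11 were lower, with a median of −0.22. Calls were made on each chromosome except X, with 2 genes. Across the 74 genes the log2 FC correlated with the mean log2 value at r = −0.47, and over the probes of these genes with their GC content at r = 0.28, against 0.23 over all other probes, where genes and probes are not independent replicates and share the arrays.

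The other genes of the pathway were taken from lists, where 9.57% of all genes tested were lower and 11.4% higher. Of 22 other genes with TOP mRNAs, 6 were lower and 0 higher (7 and 0 at an unadjusted p below 0.05 in limma), with a median log2 FC of −0.25 and 21 below 0. EEF1B2, a subunit of the exchange factor of elongation factor 1, was lower at −0.47 (SE 0.12, adjusted p 0.0117). EEF1A1, the factor that brings tRNAs to the ribosome, was −0.44 (SE 0.22, adjusted p 0.14), and EIF3L, a subunit of an initiation factor, was −0.04 (SE 0.13, adjusted p 0.86). Of 13 genes of the mTOR pathway and of TOP regulation, 0 were lower and 1 was higher, with a median of −0.05, and at an unadjusted p below 0.05 limma gave 2 lower and 3 higher. The called gene was EIF4EBP2, which holds back cap-dependent initiation (0.38, SE 0.13, adjusted p 0.0453).

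Of 31 genes of ribosome biogenesis, 11 were lower and 1 higher, with a median of −0.26. NCL, the nucleolar protein nucleolin, ran from 8.92 to 9.71 in DD pigs and from 10.50 to 11.19 in LW pigs. The breeds did not overlap, and the log2 FC was −1.57 (SE 0.11, adjusted p 1.35e-08) from 1 probe. POLR1E, a subunit of RNA polymerase I, was lower at −0.75 (SE 0.25, adjusted p 0.0366), and RRP9, a protein of the U3 particle that processes ribosomal RNA, was higher at 0.41 (SE 0.11, adjusted p 0.0149).

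Markers of some blood cells differed between the breeds as well. Over all genes tested, 9.57% were lower and 11.4% higher. Of 12 T cell genes, 4 were lower (CD3D, CD3G, CD247 and CD8A) and all were below 0, with a median of −0.44, and the mean level over the list ran from 7.68 to 9.16 in DD pigs and from 8.10 to 9.23 in LW pigs. Of 9 erythroid genes, 2 were higher, EPB42 (1.06, SE 0.29, adjusted p 0.0202) and CA1 (1.02, SE 0.35, adjusted p 0.0441), with a median of 0.31 and list means from 9.08 to 10.35 in DD pigs and from 8.87 to 9.85 in LW pigs. CD3D, CD3G, CD247 and CA1 were named after their values were seen. No gene was called in the lists of B cells (4 genes), of cytotoxic and NK cells (5) and of granulocytes (7), where 0 passed an unadjusted p of 0.05 in limma. In the lists of monocytes (4 genes), platelets (5) and proliferation (5), CD163, PPBP and PCNA were lower and CD36 was higher. Lists this short cannot be set apart from the share over all genes. The part of the cell composition of the blood in the difference of the ribosomal protein genes was not tested.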

How the data were processed

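Blood RNA was labelled and hybridized to custom pig arrays (Agilent), and signals were read with Feature Extraction 10.7.3.1 per the submitters' processing notes. The authors left out outlier arrays, corrected the background, and deposited a matrix of log2 values after quantile normalization, which is the main input here. The deposited scanner files hold the intensity of each spot and of its background, a processed signal, and flags for signals well above background. Array number limits the precision of all values. Groups came from the breed in the labels, and sow and chip from the study's supplementary animal table.

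Control probes and the 25% of other probes with the lowest mean were removed, and kept probes with 1 gene name in the scanner files were averaged. The limma model held breed and chip as fixed effects and sow as a random block (duplicateCorrelation, consensus correlation −0.11), with Benjamini-Hochberg adjustment. Every probe was also fitted on its own.

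The genes and lists were chosen with earlier results of these data known. Named genes were the 8 lowest called, all those above 0, the 4 with the widest range between probes, those of the stalk, 5S and paralogue lists, RPSA, RPS6 and RPS27A, and the 2 lowest and 2 highest of the other lists. The 5′-3′ index is the median, over mRNAs with probes at least 200 bases apart, of the first minus the last probe, each centred over pigs. Starts are those of the scanner files.

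Alternatives were scanner signals with normexp (offset 0 or 50), 75th percentile scaling, cyclic loess, other filters and probe rules, other gene names, other models, and leaving out chips or pigs. Those on probe position and O probes were chosen after seeing the data. The model was tested on simulated data with these chips and 35578 genes, of which 200 were changed. The simulated noise held no litter effect. Of 50 genes changed by each size it recovered 3 at 0.4, 30 at 0.7, 45 at 1 and 45 at 1.5 on the log2 scale, with 8 false calls. Software was Python 3.11.15 (pandas 2.3.3, numpy 2.4.6, matplotlib 3.10.9) and R 4.3.3 (limma 3.58.1, statmod 1.5.0). RefSeq was matched by symbol. Some genes that the naming rule covers are not reported here by name.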

Additional observations from a re-analysis of the deposited data

Results flagged for a closer look

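In the 10 DD pigs, 2 of 71 values checked (70 genes and the mean over the 74 genes) had a lowest pig far from the others, with a gap over the range of the group above Dixon's critical value for 10 samples. In both the pig was DD 16, which also had the lowest 5′-3′ index of the DD pigs. RPL3 was 8.13 in DD 16, next to 10.81 in the nearest pig, with a gap of 0.573 of the range. RPL18 was 9.72 next to 11.20, with a gap of 0.521. Chance flags about 1 in 20 groups, and the 11 LW pigs were not tested in this way.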

How the results depend on the processing

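The number of lower genes stayed within 1.5 times of 40 with scanner signals, other filters, probe rules, gene names, no sow block, litter means and cyclic loess. Without the sow block, whose consensus correlation was below 0, it was 36, where 6.79% of all genes were lower in place of 9.57%. It was 11 (and 1 higher, RPS29) with a median log2 FC of −0.10 under 75th percentile scaling. Without the chip term it was 17, where 3.59% of all genes were lower. It was 1 without chip 3 and 1 with array brightness in the model. Fitted probe by probe, 167 probes were lower and 1 higher. Leaving out each pig in turn gave 19 to 44 lower, 0 to 1 higher and a median from −0.41 to −0.32. Calls fell below the range of 1.5 times without LW 18 (19) and DD 21 (25), and 1 gene was called higher without DD 06. Under 75th percentile scaling RPS29 (0.36) and RPLP2 (0.034) were reversed, and the causes were not tested. Over 35 named genes, leaving out 1 pig kept the same side of the threshold in 697 of 735 cases. It lost the call in 32 and gained one in 6. For the other 21 settings these counts were 633 of 721, 70 and 16, and 2 cases were reversed. Among the cases that kept their side, the sign of a gene that was not called changed in 13 when leaving out 1 pig. It changed in 26 in the other settings. RPS10 (25), RPS24 (17) and RPS26 (10) lost their calls in the settings counted in brackets. The self-test recovered few changes of 0.4, but only 200 of its genes were changed. In the data 3406 genes were called lower and 4053 higher, and RPL24 was called at −0.28. The self-test therefore does not show how small a change could be called here, and genes that were not called may still differ. No paired analysis was possible because the breeds share no replicate numbers or litters.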

Other observations

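The 13 mitochondrially encoded mRNAs, which are translated by another set of ribosomes, had values above 0. Of these, 11 were higher in DD pigs and 0 lower, with 13 higher and 0 lower at an unadjusted p below 0.05 in limma, and a median log2 FC of 0.81. Their mean level ran from 12.29 to 13.65 in DD pigs and from 11.11 to 12.62 in LW pigs, so the breeds overlapped. ATP8, a subunit of ATP synthase singled out after its values were seen, was higher at 0.87 (SE 0.18, adjusted p 0.0043).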
